A study of Mus musculus with 8 samples.

Results

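Nuclear genes named for subunits of the mitochondrial respiratory chain and ATP synthase were followed in 2 sorted fractions of mouse bone marrow. Genes were taken by name (Ndufa, Ndufb, Ndufc, Ndufs and Ndufv with a number, the 4 Sdh genes, Uqcr, Cox4 to Cox8 and Atp5 names) among genes with annotated exons, and -ps names were left out. This gave 84 genes of 21991. By name, 37 were counted for complex I, 4 for complex II, 8 for complex III, 18 for complex IV and 17 for complex V. The tested fraction, HSC, carried no CD34 on its surface, and its counterpart, HPC, carried CD34. Both were sorted as lineage-negative bone marrow cells with c-Kit, Sca1 and CD150 from C57BL/6 mice of 8 to 10 weeks, with 4 libraries each. The source field names hematopoietic stem cells for all 8 libraries, so the fractions were taken from titles and cell markers. The labels do not tie the libraries to different animals. The p-values therefore rest only on how much these 4 and 4 libraries vary, and part of that may be technical.

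Complexes I to IV pass electrons to oxygen, complexes I, III and IV pump protons, and complex V uses the proton gradient to make ATP. Most of their subunits are nuclear genes, while 13 subunits are encoded in mitochondrial DNA. Several subunits of cytochrome c oxidase (complex IV) come in a form used in most tissues and a second form known from muscle, lung or testis. Blood stem cells are known to rely less on oxidative metabolism than their progeny. Subunit genes also left many processed pseudogenes in mammalian genomes, so a read can match more than 1 place. Exon reads of each gene were given both as a total and as the reads placed uniquely.

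Exon reads numbered 16291733 to 19070313 per HSC library and 18223082 to 20564901 per HPC library. Uniquely placed reads were 82.3% to 85.5% of them in HSC and 81.5% to 84.5% in HPC. The 84 genes took 1.37% to 1.74% of exon reads in HSC and 1.35% to 1.60% in HPC. Levels are given as TMM-scaled CPM with the SD over 4 libraries. Cd34 averaged 120 ± 15.3 CPM in the HSC fraction and 1276 ± 55.9 CPM in the HPC fraction. Slamf1, the gene of CD150, averaged 37.6 ± 6.02 CPM in HSC and 3.14 ± 0.736 CPM in HPC, although both gates required CD150. Of marker lists for other blood lineages, all 10 erythroid genes and 7 of 10 megakaryocyte genes were higher in HSC, where 19.6% of all genes tested were, and 1 megakaryocyte gene, Itga2b, was lower (log2 −0.29, edgeR adjusted p = 0.0491). Of the other lists, 8 of 10 lymphoid, 9 of 10 myeloid and 4 of 5 mast cell genes were lower, where 17.6% of all genes were. Of 8 red cell genes 4 were higher. The part of these cell types in the results was not tested. In such bulk samples, fewer cells of a type and less RNA per cell cannot be told apart.

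Short stretches of coding sequence show how far paired genes differ and which others have identical copies. The first set is shown because these 3 tissue isoforms changed between the fractions. Each pair is aligned over 60 bases of the longest coding sequence in GENCODE M21 (GRCm38), chosen as the most alike window, with capitals at the bases that differ.
Cox6a2: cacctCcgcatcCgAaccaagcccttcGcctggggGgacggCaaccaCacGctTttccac
Cox6a1: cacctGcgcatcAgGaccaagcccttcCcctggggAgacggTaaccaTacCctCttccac
Cox6b2: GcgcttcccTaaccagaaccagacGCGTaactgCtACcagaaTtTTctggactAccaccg
Cox6b1: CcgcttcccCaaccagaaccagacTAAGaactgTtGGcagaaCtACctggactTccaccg
Cox4i2: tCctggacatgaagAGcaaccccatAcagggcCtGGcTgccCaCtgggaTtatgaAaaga
Cox4i1: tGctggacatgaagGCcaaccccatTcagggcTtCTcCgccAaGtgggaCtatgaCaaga
Even in these windows the pairs shared 51, 47 and 48 of 60 bases, and their whole coding sequences were 66.6%, 64.9% and 69.6% identical, with no identical run above 14 bases. The second set is shown because the opening 60 coding bases of these genes occur base for base in a processed pseudogene elsewhere (Gm10175 on chromosome 7, Gm12338 on chromosome 11 and Ndufb4c on chromosome 15).
Atp5g2: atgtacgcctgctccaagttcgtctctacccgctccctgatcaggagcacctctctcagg
Cox7c: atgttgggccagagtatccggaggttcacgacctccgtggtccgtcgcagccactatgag
Ndufb4: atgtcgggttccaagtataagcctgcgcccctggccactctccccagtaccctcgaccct

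Most genes of the respiratory chain had no call between the fractions, while 3 isoform genes of complex IV, Cox5a, Ndufa4 and Ndufb9 did. Of the 84 genes 79 passed the filter on low counts, and of these 3 were higher in HSC (Ndufb9, Cox4i2 and Cox6b2) and 3 were lower (Ndufa4, Cox5a and Cox6a2) by the edgeR quasi-likelihood test, with Benjamini-Hochberg values over 12751 genes kept under 0.05. Over all genes tested 37.1% were called, 19.6% higher and 17.6% lower. The remaining 73 had no call, and 9 of the 79 had an unadjusted p under 0.05. The median log2 change (HSC over HPC) of the 79 was 0.013, against 0.003 for all genes, and the median size of the change was 0.088, against 0.309. The middle 50% of members lay between −0.10 and 0.07, and that of all genes between −0.27 and 0.36. The smallest and largest changes of complex II were −0.27 and 0.09, those of complex III −0.10 and 0.30, and those of complex V −0.27 and 0.36, with 0 genes of these 3 complexes called.

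**Figure D1:**
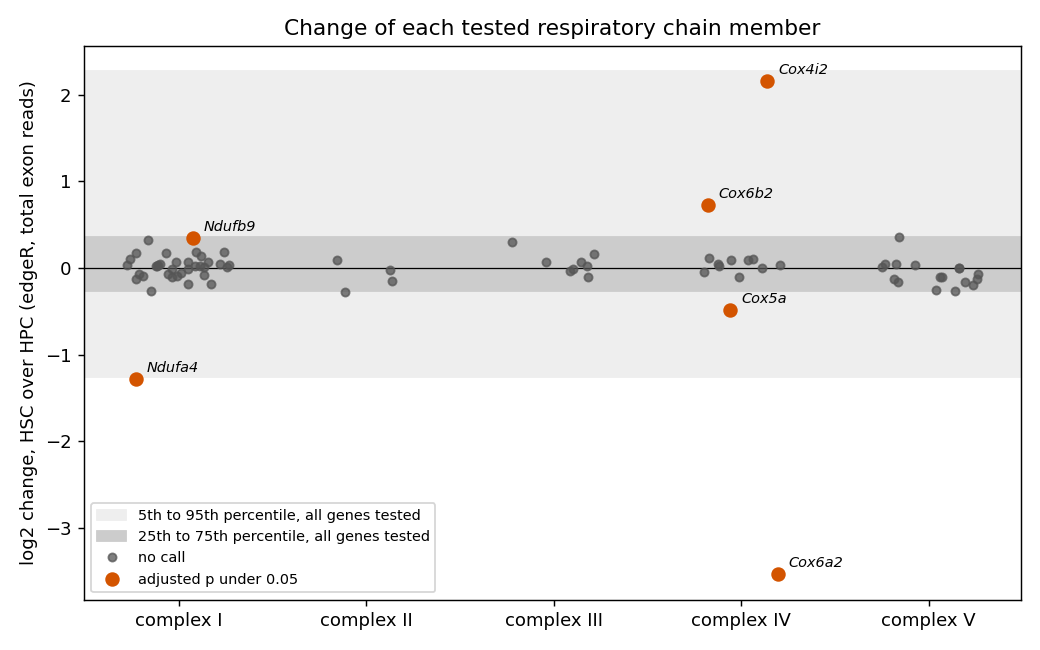
Log2 change (HSC over HPC, edgeR, total exon reads) of the 79 tested members by complex, 1 point per gene, with bands for all genes tested. The 6 called members are named, and all lie in complexes I and IV, from −3.54 for Cox6a2 to 2.16 for Cox4i2.

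The members are short and abundant. The median exon length of the tested members was 754 bases, against 3436 for all genes tested, and their median level was 167 CPM per kb of exon, against 9.22. By the mean of both fractions per kb, the most abundant member was Ndufa4 in complex I, Sdhb (the iron-sulfur subunit) in II, Uqcrb in III, Cox4i1 in IV and Atp5e (the epsilon subunit) in V. In CPM per kb of exon, Uqcrb averaged 632 in HSC and 567 in HPC, Cox4i1 671 in HSC and 618 in HPC, and Atp5e 525 in HSC and 575 in HPC. None of these 3 was called. The order differed by fraction in 3 complexes: within HSC, Ndufa3 (587 CPM per kb) stood above Ndufa4 (432), Sdhd (178) above Sdhb (170), and Atp5l (548) above Atp5e. The least abundant were Ndufa4l2, Sdhc, Uqcrq, Cox8b and Cox8c (both at 0 reads) and Atp5sl, the last of which is known from human cells as the complex I assembly factor DMAC2. Sdhb averaged 183 ± 29.8 CPM (HSC) and 221 ± 28.05 CPM (HPC) with no call (log2 −0.27, edgeR adjusted p = 0.0993).

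Ndufa4 is named for complex I and is counted there by its name, but its protein is known as a subunit of complex IV. Ndufa4 (gene 17992, chromosome 6, 11900373 to 11907446, mm10) had 214, 194, 177 and 265 CPM in HSC, against 503, 508, 449 and 610 CPM in HPC. Every HSC library lay below every HPC library. Its mean was 2.44-fold lower in HSC (log2 −1.28 ± 0.13 SE, edgeR adjusted p = 2.44e-06), and all of its reads were uniquely placed. Its paralog Ndufa4l2, known to rise in hypoxia, had 1 read in HSC and 0 in HPC over all libraries.

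Ndufa4 starts 252 bases from Phf14, a PHD finger gene that runs the other way. This neighbour was looked at after the values of Ndufa4 were seen. Phf14 averaged 39.5 ± 5.82 CPM in HSC and 95.5 ± 8.79 CPM in the HPC libraries (log2 −1.27 ± 0.13, edgeR adjusted p = 1.82e-06), and its groups did not overlap. The RefSeq promoter of Ndufa4 (chr6:11907401-11907700, minus strand, GRCm38.p6) is shown because the window spans the stretch between both starts. Capitals mark the first 10 bases from the RefSeq start at 11907450. The 252 bases are counted from the start in the deposited counts, 11907446.
Ndufa4 promoter: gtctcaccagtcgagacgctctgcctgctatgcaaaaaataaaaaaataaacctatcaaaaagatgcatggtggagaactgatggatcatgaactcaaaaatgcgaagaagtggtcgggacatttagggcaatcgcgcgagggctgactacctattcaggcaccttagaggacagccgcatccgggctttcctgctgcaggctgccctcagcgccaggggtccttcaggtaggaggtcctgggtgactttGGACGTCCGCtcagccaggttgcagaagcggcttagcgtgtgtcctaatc
Ndufb9 likewise starts 54 bases from Tatdn1, which averaged 18.7 ± 4.44 CPM in HSC and 12.6 ± 1.17 CPM in the HPC libraries (log2 0.57, edgeR adjusted p = 0.0279). The log2 change of Tatdn1 lost its call by unique reads (adjusted p = 0.054) and without HSC replicate 1 (0.0981), HSC replicate 4 (0.0871), HPC replicate 1 (0.0685) or HPC replicate 3 (0.0732). Of 25 member and partner pairs with starts at most 1000 bases apart (or overlapping by up to 200), only these 2 had a called member, and in both the partner was called in the same direction. Over all genes, 104 of 450 called genes with such a partner (23.1%) had it called in the same direction and 32 in the opposite one. Members without a call also had called partners, such as Haus1 (−0.47) beside Atp5a1 and Vmac (0.57) beside Ndufa11.

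Cox6a2, the heart and skeletal muscle form of subunit 6A, showed the largest change among the members. Cox6a2 (gene 12862, chromosome 7, 128205435 to 128206366) had 1.19, 1.67, 0.855 and 1.69 CPM in HSC, against 19.0, 14.7, 15.4 and 14.0 CPM in HPC. The groups lay far apart. Its mean was 11.7-fold lower in HSC (log2 −3.54 ± 0.26, edgeR adjusted p = 1.08e-07), on 101 reads in HSC and 1184 in HPC, all uniquely placed. Cox6a1, its partner in most tissues, averaged 156 ± 28.5 CPM in HSC and 157 ± 21.9 CPM in HPC with no call (log2 −0.00). Per kb of exon, Cox6a2 made up 0.692% ± 0.159 of the pair in HSC and 7.64% ± 1.497 in HPC (SD, n = 4 each). Of 10 muscle markers, 6 (Actc1, Des, Mb, Myh4, Myh6 and Myl1) had 0 reads in all 8 libraries, and the list summed to 2.11 to 3.80 CPM in HSC and 2.91 to 4.68 CPM in HPC. Ckm, muscle creatine kinase, fell to 0.250 CPM in HSC, against 1.34 CPM in the HPC libraries (log2 −2.38, edgeR adjusted p = 0.00884), on 1 to 8 reads per HSC library. Tnni2, the only other marker of the list that was tested and its most abundant one, averaged 2.57 CPM in HSC and 2.19 CPM in HPC with no call (log2 0.23). Itgad overlaps Cox6a2 by 70 bases on the other strand and had no call (log2 −2.48, edgeR adjusted p = 0.0572), and whether reads were counted by strand is not given in the sources used here.

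Cox4i2, the lung form of subunit 4 that is known to rise in hypoxia, was higher in HSC. Cox4i2 (gene 84682, chromosome 2, 152752537 to 152765039) had 9.599, 5.12, 5.33 and 9.39 CPM in HSC, against 2.11, 1.24, 1.62 and 1.60 CPM in HPC. The groups did not overlap, and HSC replicates 1 and 4 stood above HSC replicates 2 and 3. The change was 2.16 ± 0.34 on the log2 scale (edgeR adjusted p = 0.000137), on 543 reads in HSC and 123 in HPC. Cox4i1, its common partner, averaged 513 ± 63.6 CPM in HSC and 472 ± 57.7 CPM in HPC with no call (log2 0.12), so that Cox4i2 was 0.488% ± 0.118 of the pair in HSC and 0.122% ± 0.0336 in HPC. Bcl2l1, a survival gene on the other strand, overlaps the span of Cox4i2, introns included, by 6308 bases. It was higher in HSC (log2 0.61, edgeR adjusted p = 0.000688). Gm32057, also on the other strand, overlaps that span by 5278 bases and was not tested. Without known strand counting, reads of these genes cannot be told apart where they overlap. Cox4i2 was also called by exon-exon reads. Markers of pericytes and stroma summed to 14.1 to 29.3 CPM in HSC and 2.68 to 9.36 CPM in HPC. Of the 11 genes in that list 3 were tested. Cxcl12 (log2 1.99, edgeR adjusted p = 0.0128, groups overlapping) and Notch3 (log2 2.91, edgeR adjusted p = 0.00099) were higher in HSC, and Col1a2 had no call. Notch3 had 25.8% unique reads and was not tested by unique reads. Rgs5 was at 0 in all libraries, and the part of these cell types in the result was not tested.

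Cox6b2, a form of subunit 6B known from testis, was also higher in HSC and made up a larger part of its pair. Cox6b2 (gene 333182, chromosome 7, 4751792 to 4753094) had 56.9, 49.97, 47.3 and 67.8 CPM in HSC, against 32.4, 32.9, 31.0 and 38.2 CPM in HPC. All HSC libraries lay above all HPC libraries. The change was 0.72 ± 0.13 on the log2 scale (edgeR adjusted p = 0.000637). Cox6b1 averaged 244 ± 43.7 CPM in HSC and 230 ± 28.4 CPM in HPC with no call, and the Cox6b2 share per kb was 15.6% to 16.3% in HSC and 10.5% to 11.1% in HPC. Testis markers summed to 0.106 to 0.471 CPM in HSC and 0 to 0.669 CPM in HPC, with Odf1, Prm2 and Tnp1 at 0 reads throughout.

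Cox5a, a subunit with a single form, was lower in HSC. Cox5a (gene 12858, chromosome 9, 57521232 to 57532427) had 175, 178, 132 and 203 CPM in HSC, against 237, 219, 232 and 279 CPM in HPC. The groups did not overlap, with a log2 change of −0.49 ± 0.12 (edgeR adjusted p = 0.00593). Ndufb9, an accessory subunit of complex I (gene 66218, chromosome 15, 58933810 to 58939489), had 126, 119, 107 and 149 CPM in HSC, against 93.8, 105, 86.4 and 110 CPM in HPC. It averaged 125 ± 17.9 CPM in HSC and 98.7 ± 10.7 CPM in the HPC libraries (log2 0.34 ± 0.12, edgeR adjusted p = 0.0313). Its groups overlapped, and the log2 change of Ndufb9 lost its call without HSC replicate 1 (adjusted p = 0.0666), HSC replicate 4 (0.107), HPC replicate 1 (0.089) or HPC replicate 3 (0.0988). By non-overlap of the CPM, 5 members stood apart, all but Ndufb9 of the called ones, where 36.7% of all genes did.

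**Figure D2:**
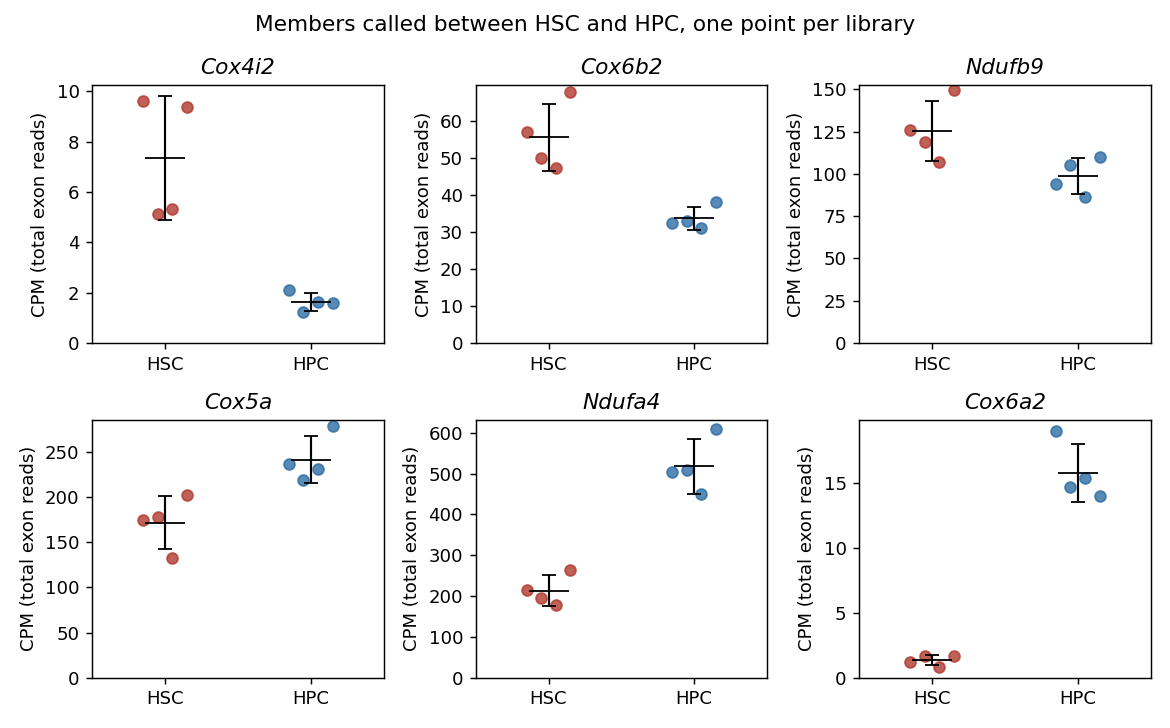
TMM-scaled CPM of total exon reads for the 6 called members, 1 point per library, HSC left and HPC right, with bars for mean ± SD. Only Ndufb9 shows HSC and HPC libraries that overlap.

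Other tissue forms were at or near 0. Cox8b (known from muscle) and Cox8c (testis) had 0 reads in all 8 libraries, which allows up to 0.146 to 0.184 CPM per library, counting error only. Cox7a1, a muscle form, had 17 reads in HSC and 31 in HPC, and Cox7b2, a testis form, had 3 and 2. Their partners Cox7a2, Cox7b and Cox8a had no call, with log2 changes of 0.04, 0.02 and −0.05. The Atp5g genes encode the same mature c subunit of the ATP synthase rotor from 3 loci. By total reads per kb, Atp5g1 made up 31.6% ± 2.93 in HSC and 24.0% ± 1.51 in HPC, and Atp5g2 49.4% ± 1.34 in HSC and 57.8% ± 2.22 in HPC, with groups that did not overlap. By unique reads the Atp5g2 share was 5.62% ± 1.08 in HSC and 7.89% ± 1.48 in HPC, and the groups overlapped for all 3 genes. None of the 3 was called by total reads (Atp5g1 log2 0.36, edgeR adjusted p = 0.0799). The log2 change of Atp5g1 was called under upper quartile scaling (adjusted p = 0.0389), without HSC replicate 3 (0.0334), without HPC replicate 4 (0.0241) and without both libraries numbered 4 (0.0442), and it ran from 0.20 without HSC replicate 4 to 0.47 without HPC replicate 4.

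**Figure D3:**
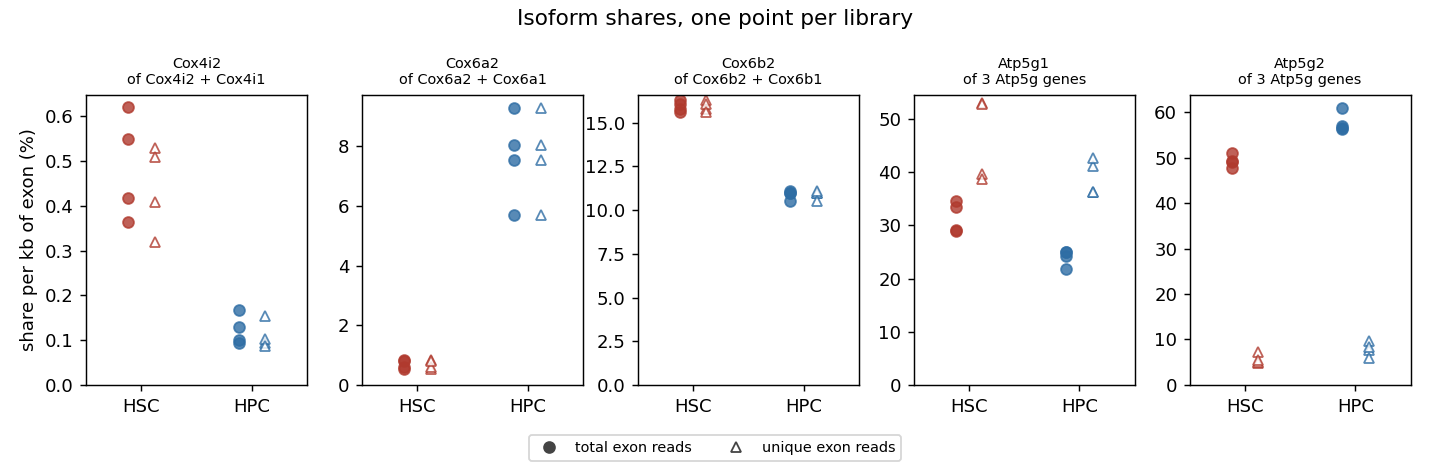
Share of each isoform in its pair or trio by reads per kb of exon, 1 point per library, for total (filled) and unique (open) exon reads. Cox6a2 and Cox6b2 give the same shares by both, while Atp5g2 is near 50% by total and below 10% by unique reads.

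Calls of members were the same 6 by total and by unique reads. In the unique fit 75 members were tested and 3 were higher and 3 lower, where 36.4% of 12143 genes were called (19% higher, 17.4% lower). Unique placement was complete or nearly so for most members: of 79 with at least 400 reads, 75.9% had over 99% unique reads and 8.86% had under 50%, against 72.7% and 9.77% of all genes with as many reads. The 7 members under 50% were Ndufa7, Ndufs3, Uqcrc1 and Atp5a1 at 0%, Atp5g2 at 4.60%, Ndufb4 at 29.5% and Cox7c at 31.5%. The 4 at 0% lie on more than 1 row of the files, each being given on an alternate locus as well. They showed no call by total reads and could not be tested by unique reads.

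Among 75 members on a single row with at least 400 reads, 53 had no copy of at least 95% identity over 50 bases in another GENCODE gene, and their median unique share was 100% (lowest 90.2%). The 22 with a copy had a median of 83.2%, from 4.60% to 100%. Spearman's rho between the covered part of the coding sequence and the unique share was −0.72 over these 75 genes, which share libraries and are not independent. A copy did not always go with lost unique reads: Cox7b and Ndufb3 had copies of 96.7% and 96.8% identity and 100% unique reads. The largest gaps between total and unique changes were those of Cox7c (log2 0.09 by total and 0.44 by unique reads, edgeR adjusted p = 0.0904), Ndufb4 (−0.01 and 0.23) and Uqcrb (0.16 and 0.09), with no call in either.

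**Figure D4:**
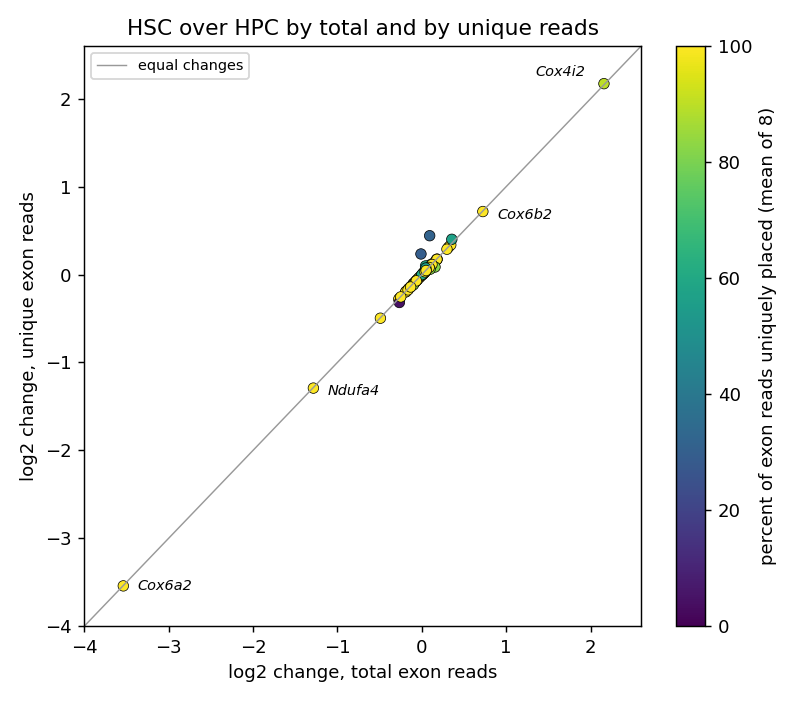
Log2 change by total (x) and unique (y) exon reads for the 75 members tested in both fits, coloured by the percent of reads uniquely placed. Most members lie on the line of equal changes, and Cox7c and Ndufb4, with 31.5% and 29.5% unique reads, lie above it.

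The ratio of unique to other exon reads was compared between the fractions. Of 21 members with enough total and other reads, of which 17 had any unique reads, 0 were called (limma with trend, Benjamini-Hochberg over 2712 genes, of which 1.03% were called, 0.479% higher and 0.553% lower), and 2 had an unadjusted p under 0.05. The unique percent of Cox7c overlapped, as it did for all but 3.1% of those genes. Cox7c had 33.5%, 29.0%, 38.5% and 39.6% unique reads in HSC, against 31.1%, 28.6%, 27.8% and 24.1% in HPC (log2 ratio 0.49 ± 0.18, limma adjusted p = 0.621). Atp5f1 changed the other way (log2 ratio −1.02 ± 0.41, limma adjusted p = 0.718), with means of 99.4% unique reads in HSC and 99.7% in HPC. The ratio split the libraries across the fractions instead. The first principal component of the ratios, with fraction means taken off, held 73.6% of the variance and placed HSC replicates 3 and 4 with HPC replicates 1 and 2, and HSC replicates 1 and 2 with HPC replicates 3 and 4. The labels name no batch, and these sets were defined from the ratios.

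Uqcrb showed this split. It had 62.5%, 55.3%, 98.2% and 98.2% unique reads in the HSC libraries, against 98.0%, 97.6%, 79.6% and 64.8% in the HPC libraries. Ndufs5 had 75.3% to 85.4% unique reads in the 4 libraries of the set with more and 31.7% to 47.6% in the others, and Cox5b 94.6% to 97.5% and 61.5% to 78.2%. Of 17 members tested that had any unique reads, 14 were higher in all 4 libraries of that set, as were 43.8% of 2561 such genes. Of these members 0 were lower, where 1.02% of those 2561 genes were. The same 4 libraries also had more reads across exon junctions (54.8% to 56.8% of exon reads, against 48.6% to 52.2%). The sets were chosen by these ratios, so they carry no test, and their cause was not tested.

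**Figure D5:**
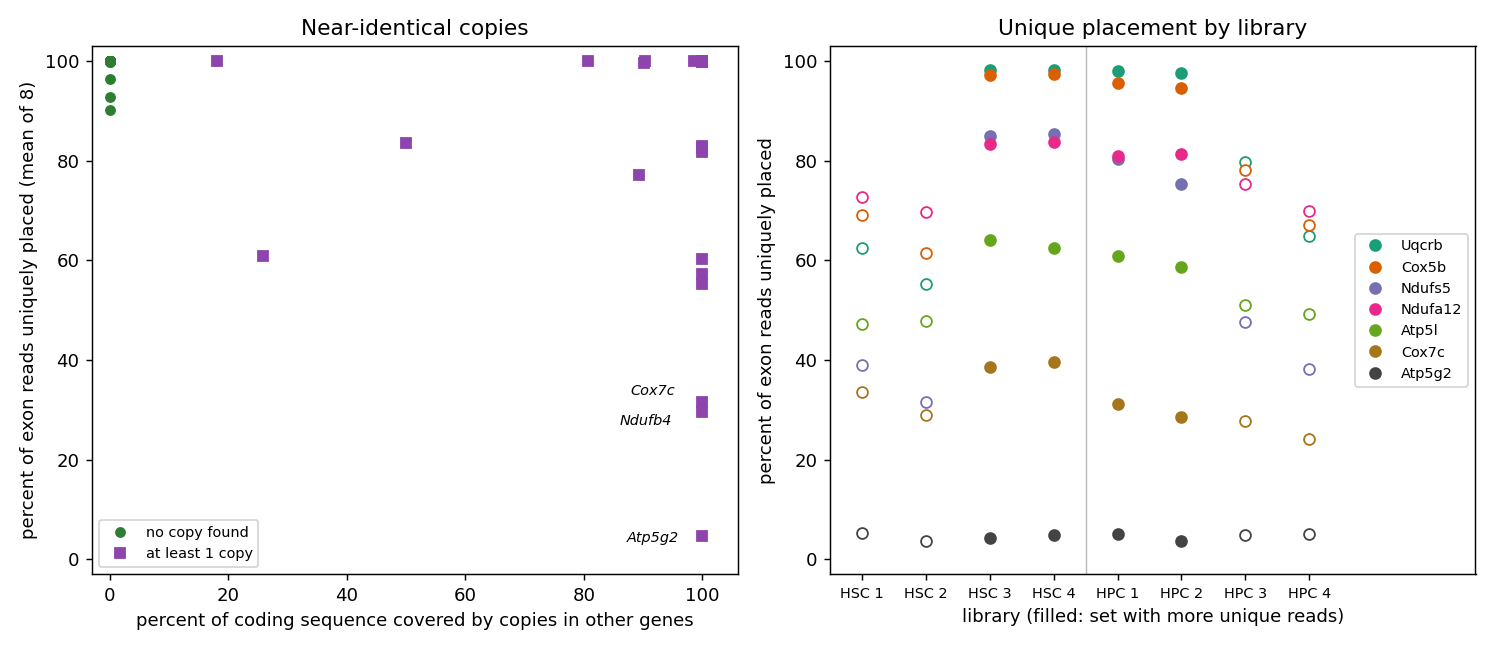
Left, percent of exon reads uniquely placed against the percent of the coding sequence covered by copies in other genes, 1 point per member. Right, percent uniquely placed in each library for 7 members, filled for the set with more unique reads; Uqcrb stands near 98% in those 4 libraries and between 55.3% and 79.6% in the other 4.

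Each set holds 2 libraries of each fraction, so the calls could be read within them. All 6 members kept their direction in both sets. For all but Ndufb9 this was fixed in advance, since their HSC and HPC libraries did not overlap. The log2 ratio of mean CPM was −3.73 and −3.36 for Cox6a2, −1.20 and −1.38 for Ndufa4, 2.13 and 2.19 for Cox4i2, 0.82 and 0.63 for Cox6b2, −0.45 and −0.53 for Cox5a, and 0.37 and 0.32 for Ndufb9, in the set with more and the set with fewer unique reads. With the set as a covariate the same 6 were called. Within a set, 2 libraries against 2, Cox5a lost its call in the set with more (edgeR adjusted p = 0.161), and Ndufb9 in both (0.226 and 0.156).

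Summed over each complex, levels overlapped between the fractions. Complex II summed to 593 ± 47.0 CPM per kb in HSC and 630 ± 41.1 in HPC, and complex IV to 4328 ± 712 and 4310 ± 437 (HSC and HPC, SD, n = 4 each). Complex I summed to 5626 ± 846 CPM per kb in HSC and 6174 ± 688 in HPC, complex III to 2660 ± 526 and 2475 ± 234, and complex V to 4872 ± 767 and 5113 ± 564 (HSC and HPC, SD, n = 4 each). The complex I sums hold Ndufa4, whose protein is known from complex IV, at 432 CPM per kb in HSC and 1052 in HPC. That gap is wider than the gap between the 2 complex I means. HSC replicate 4 was the highest HSC library in all 5 complexes, and it also had the highest share of junction reads of the 8 libraries and the lowest share of intron reads (22.02%). HPC replicate 4 was likewise the highest HPC library in all 5 complexes. Among the HPC libraries it had the lowest share of junction reads (51.7%) and also the lowest share of intron reads (22.33%). The part of these shares was not tested. The mitochondrially encoded subunits were counted as gene reads in a separate fit. Of 13 genes 11 were tested, 0 were called where 16.3% of 2443 genes were (8.51% higher and 7.78% lower), and 2 (ND5 and ND6) had an unadjusted p under 0.05. Their median log2 change was −0.28, from −0.48 to −0.14, and −0.02 when scaled by exon reads instead, which shifted the median of all genes in that fit to 0.28. ND6 averaged 3244 ± 444 CPM in HSC and 4534 ± 672 CPM in the HPC libraries (log2 −0.48, edgeR adjusted p = 0.0844), and was called with the library set as a covariate (edgeR adjusted p = 0.0437).

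Genes that assemble or control the chain were read from lists, against a share of 37.1% called over all genes tested (19.6% higher, 17.6% lower). Of 14 complex I assembly factors 1 fell (Tmem186, log2 −0.29, edgeR adjusted p = 0.0321, lost when any of 5 libraries was left out), of 6 for complex III 1 rose (Ttc19, log2 0.58, edgeR adjusted p = 0.0468, lost when any of 7 libraries was left out), and of 24 for complex IV, 4 for complex II and 3 for ATP synthase 0 were called. Atpif1, the inhibitor protein of ATP synthase, averaged 481 ± 113 CPM in HSC and 339 ± 44.6 CPM in the HPC libraries (log2 0.50, edgeR adjusted p = 0.0138), the only one called of 8 carriers and associated genes; without HPC replicate 3 the log2 change of Atpif1 lost its call (0.051). Of 17 regulators 3 fell: Gabpb1, a subunit of the ETS factor GABP (108 ± 6.77 CPM in HSC and 170 ± 13.8 CPM in HPC), Myc (345 ± 24.4 and 560 ± 30.8) and Nrf1 (82.4 ± 9.09 and 104 ± 1.99; no call without HSC replicate 1). The share of regulators that fell is near the 17.6% of all genes. Of 15 TCA cycle genes 4 fell, not far from that share either. These were Idh3g, Suclg1, Fh1 and Ogdh, lower by 0.41, 0.33, 0.31 and 0.33 on the log2 scale. Idh3g kept its call without any 1 library, while Suclg1 lost it without HSC replicate 3, Fh1 on leaving out any of HSC replicates 2 and 3 and HPC replicates 1 and 4, and Ogdh on leaving out any of HSC replicates 1, 2 and 4 and HPC replicates 1 and 2. Of 7 uncoupling and ADP carrier genes only Ucp2 was called by total reads. It fell by 0.42 and lost its call in 3 of 23 alternative settings. By unique reads 2 genes of this list were lower.

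Among 13 hypoxia genes 2 rose and 4 fell, so that 6 of 13 were called, near the 37.1% called over all genes tested (19.6% higher, 17.6% lower). The genes below are given as single values. Epas1, which encodes HIF-2alpha, had 5.86 ± 2.66 CPM in HSC and 0.1002 ± 0.167 CPM in the HPC libraries and was called higher (edgeR adjusted p = 2.75e-05). The HPC libraries held 1, 7, 0 and 0 reads, and their mean lies below the level that a count of 0 allows, so the size of the change is poorly fixed. The log2 change of Epas1 ran from 5.33 to 7.88 on leaving out 1 library, the highest without HPC replicate 2, and was 3.19 by gene reads. Vegfa had 20.1 ± 2.37 CPM in HSC and 11.04 ± 2.02 CPM in the HPC libraries (log2 0.86). Hif1a fell by 0.61 and the prolyl hydroxylase gene Egln3 by 1.31 on the log2 scale. In the RefSeq promoters of 69 of the 84 members, the NRF1 letters (GCGCA, any base, GCGC) were found in 23.2%, against 6.7% of 17268 genes, the ETS letters CCGGAAG in 21.7% against 2079 of those 17268, the YY1 letters ATGGCGG in 13.0% against 5.5% and TATAAA in 10.1% against 13.3%, on both strands. The promoter of Cox6a1 (chr5:115348909-115349208, minus strand, GRCm38.p6) is shown as an example picked after the matches were seen, with NRF1 and ETS letters in capitals; a match is no sign of binding.
Cox6a1 promoter: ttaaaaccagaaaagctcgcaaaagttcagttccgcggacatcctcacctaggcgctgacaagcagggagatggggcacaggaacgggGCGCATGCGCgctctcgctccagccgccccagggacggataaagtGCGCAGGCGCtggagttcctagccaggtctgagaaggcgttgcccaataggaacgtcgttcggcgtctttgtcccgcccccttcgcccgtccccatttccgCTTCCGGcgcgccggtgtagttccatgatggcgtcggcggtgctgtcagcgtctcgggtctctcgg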

How the data were processed

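RNA-seq counts of 8 libraries (4 HSC, 4 HPC) were used. Per the file headers, the authors deposited raw counts for each row (exon, gene, intron and junction reads), both for all reads and for uniquely placed ones. The submitters' processing notes name mm10. Aligner, counter and strand setting: not given in the sources used here. The protocol in the labels speaks of HSC only and names SMARTer Pico cDNA, PCR and Nextera XT. Rows were summed per gene ID. The edgeR 4.0.16 test (R 4.3.3) was run on total exon reads (filterByExpr, TMM, quasi-likelihood, no covariate), adjusted by Benjamini-Hochberg at 0.05; an SE is the change over the root of its F. The ratio fit used limma 3.58.1 on log2 ratios with an offset of 0.5 for genes with at least 50 exon reads in each library and a mean of 10 other reads. Tests were tried on simulated data. DESeq2 1.42.0 was an alternative. Named genes were the called members, isoform pairs, members under 50% unique, extremes of abundance, the 3 largest gaps, and up to 4 called genes per list. The members and lists were chosen with earlier results of these data known. No library pair looked like 1 library deposited again. The biological coefficient of variation was 18.3%. Intervals and floors cover counting error only.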

Additional observations from a re-analysis of the deposited data

Results flagged for a closer look

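Among 66 groups of 4 libraries (named members with at least 20 reads, and complex sums), the gap of an extreme library to the nearest other, over the whole range, passed Dixon's 95% limit in 2, where chance gives about 1 in 20. Cox7a2 stood at 187.4 CPM in HSC replicate 4, against 117.8 to 129.5 CPM in the other HSC libraries. The complex III sum stood at 2127 CPM per kb in HPC replicate 3, against 2558 to 2632 in the other HPC libraries.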

How the results depend on the processing

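Cox6a2, Ndufa4, Cox4i2, Cox6b2 and Cox5a were called under each alternative run over all 8 or 7 libraries. Upper quartile scaling, which moved the median of all genes by 0.077, called 5 members higher. With the replicate block 5 were higher and 6 lower, and 10 were called by unique reads. Under that block the log2 change of Atp5g1 (adjusted p = 0.00342) and the log2 change of Atp5g2 (0.0474) were among those gained. Same-numbered libraries deviated together with correlations of −0.013, −0.118, 0.084 and 0.145, and other-numbered ones with −0.2 to 0.074. Replicates 3 and 4 correlated best with their own number, and replicates 1 and 2 did not. These values are too weak to tell whether the numbers pair the libraries. Leaving out a library gave 2 to 5 members higher and 3 to 7 lower, 5 to 8 by unique reads, and a member median of −0.105 to 0.090; 7 lower came without HSC replicate 4, and 5 higher without HSC replicate 3 or HPC replicate 4. Without both libraries numbered 4, 5 were lower. With the library set as a covariate, added after seeing the data, 1 mitochondrial gene was called. Unique reads gave complex II sums of 709.2 in HSC and 756.7 in HPC. Tmem186 turned to 0.027 by exon-exon reads (adjusted p = 0.947). The log2 change of Ndufb9 lost its call by gene reads (adjusted p = 0.0918) and exon-exon reads (0.0739). Causes were not tested. Depth limits what can be said of Cox7a1, Cox7b2 and Ndufa4l2.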
